A study of Mus musculus with 12 samples.

Results

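Heart muscle genes were followed in RNA sequencing libraries made from mouse embryo heads. The set held 34 genes of the cardiac chambers, the sarcomere and cardiac gene regulation, chosen by name, and all 34 had a row among the 24421 gene symbols of the deposited count table. Of these, 33 passed the filter on low counts, which kept 14810 genes in all, and Sln did not. The 12 libraries came from C57Bl/6 embryos with an alteration of Eftud2, a GTPase of the U5 particle of the spliceosome, that the series describes as specific to neural crest cells. They formed 4 groups of 3, namely heterozygous embryos (Eftud2+/-, the controls) and homozygous embryos (Eftud2-/-, the mutants), each at the stages E9.0 and E9.5, in embryonic days. All groups analysed here, the controls included, carried at least 1 altered allele. The labels name the source as neural crest cells and the tissue as cranial nerve ganglia, while the protocol speaks of heads. They give neither the Cre driver, the somite numbers, the dissection border nor the number of embryos behind each library, and nothing says that the replicates were separate embryos. The p-values below therefore measure the spread between these samples, which may be technical.

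Heart muscle contracts through sarcomeres, in which thick filaments of myosin pull on thin filaments of actin that are anchored at Z discs and kept in register by titin. Calcium released from the sarcoplasmic reticulum binds troponin C on the thin filament and starts each contraction. The programme is switched on in the early heart tube by transcription factors of the NK2, GATA and T-box families together with serum response factor, its partner myocardin and MEF2 proteins. At the stages studied here the heart tube loops and its chambers begin to form, and it lies just behind and beneath the pharyngeal arches of the head. Several of the genes, among them Ttn, Actc1, Tnnc1, Tcap, Csrp3, Ldb3 and Smyd1, are also used by skeletal muscle.

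Library totals were 13914543 to 24302660 counts at E9.0 and 24165537 to 31172708 at E9.5. Rn45s, the ribosomal RNA precursor, made up 37.4% of heterozygous E9.0 replicate 1 and 4.4% to 16.2% of the other 11 libraries. Levels are given in CPM, the usual unit for counts relative to the library total, here after TMM scaling, which corrects for such a row. At this depth 3 counts, the limit that a count of 0 allows, corresponded to 0.088 to 0.225 CPM in a library, for counting error only. Eftud2 ranged from 275 to 302 CPM over the heterozygous and from 232 to 236 CPM over the homozygous E9.0 libraries, and was at 248 to 264 against 221 to 226 CPM at E9.5, so the groups stood in the order of their labels. Head tissue was present in all libraries by its markers. Otx2, a forebrain and midbrain regulator, ranged from 31.7 to 67.1 CPM, and Sox10, a regulator of migrating neural crest and its glia, from 2.89 to 43.9 CPM. The 18 trunk Hox and tail genes of a comparison list, which mark more posterior tissue, summed to 2.92 to 19.6 CPM.

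In both genotypes the heart muscle genes were low at E9.0 and higher at E9.5. Together the 34 genes held 0.0151% to 0.0891% of a library's counts at E9.0 and 0.521% to 0.891% at E9.5. In heterozygous heads all 33 tested genes rose (edgeR quasi-likelihood test, Benjamini-Hochberg adjusted p at most 0.0302), where 19.2% of all 14810 genes passed the same test as higher. In homozygous heads all 33 rose as well (edgeR adjusted p at most 0.0112), where 19.6% of all genes did. The 3 E9.5 libraries lay above the 3 E9.0 libraries for each of the 33 in heterozygous heads (25.2% of all genes) and in homozygous heads (26% of all genes). Log2 fold changes ran from 0.87 for Myocd to 8.68 for Nppa in heterozygous heads, with a median of 3.82, and from 1.16 to 7.63 in homozygous heads, with a median of 3.68. Cox6a2 is left out of the heterozygous range, since it had no count at E9.0 there and its fitted value is no bound; it was at least 41.3-fold higher against a floor of 3 counts over the group, which leaves the median as it is. The median over all genes was 0.01 in each. These medians and counts leave out Sln and include 7 genes that passed the filter only through their E9.5 libraries, namely Nppa, Nppb, Bmp10, Tcap, Pln, Casq2 and Cox6a2. All 26 genes that the E9.0 libraries alone would have kept rose in both genotypes. In libraries of whole tissue, fewer cells of a type and less RNA per cell cannot be told apart.

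**Figure D1:**
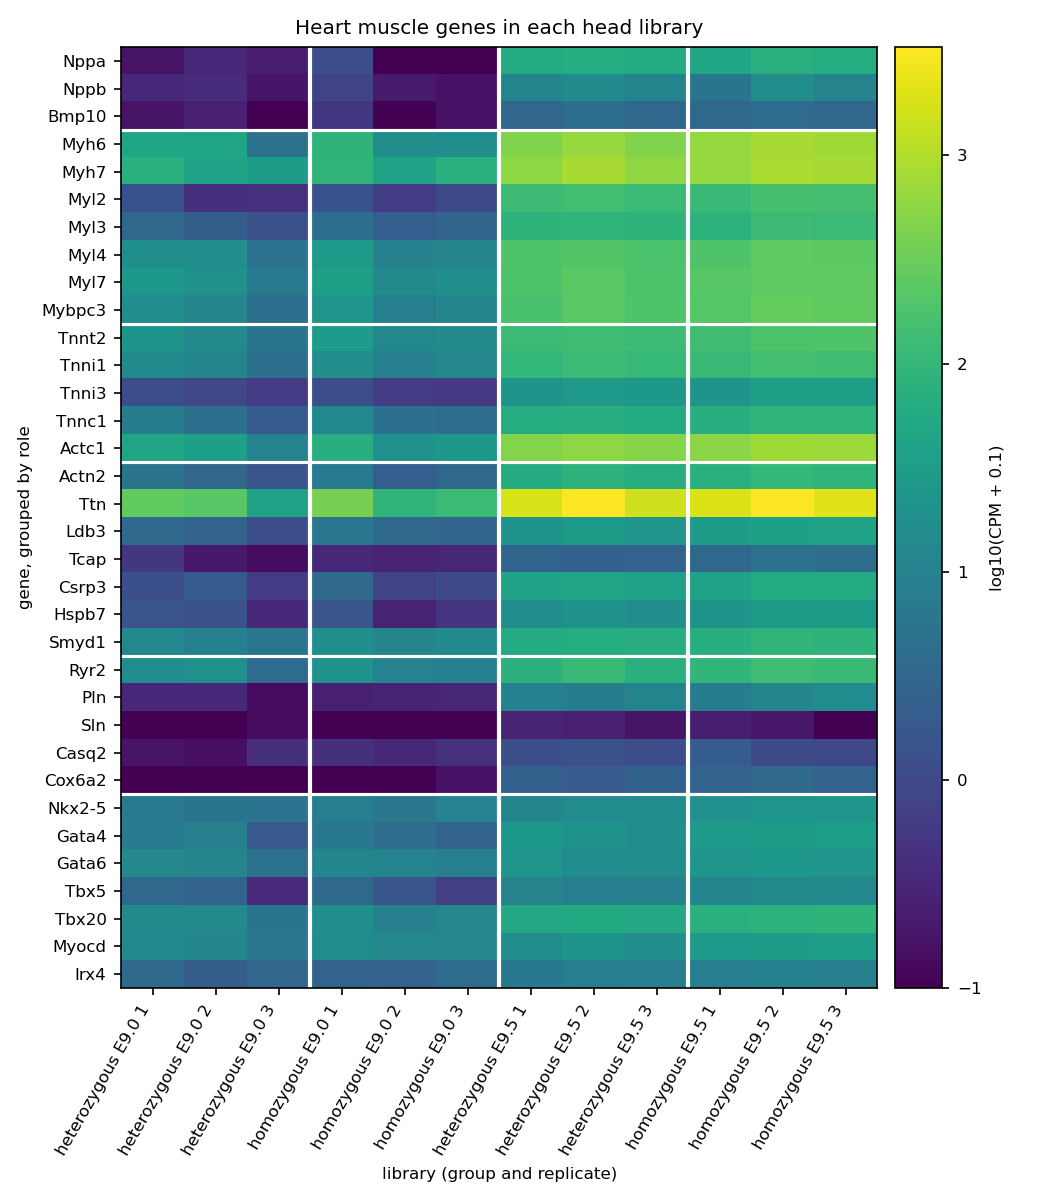
Level of each of the 34 heart muscle genes (rows, grouped by role from the secreted signals at the top to the regulators at the bottom) in each of the 12 libraries (columns), as log10 of CPM plus 0.1. Within each genotype the 3 E9.5 columns are brighter than the 3 E9.0 columns for the 33 tested genes, and within E9.0 the column of heterozygous replicate 3 is the darkest for most sarcomere genes.

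Promoters of 4 genes are shown because they belong to genes that rose together in both genotypes and hold short motifs of the cardiac factors named above. Each runs from 250 bases before to 50 bases after the annotated start, 5′ to 3′ on the strand of the gene, from RefSeq on GRCm38.p6, with matched motifs in capitals. Myl7 and Actc1 hold a CArG box, the site of serum response factor, Ttn holds a MEF2 box, and Nppa holds a T-box motif, an NK2 site and the letters TATAAA. The capitals near the end of the Actc1 stretch mark TATAAA too, which begins at base 34 counted from the annotated start. In Nppa these letters begin 9 bases before the start. The windows are chr11:5898733-5899032 (minus strand) for Myl7, chr2:114052826-114053125 (minus strand) for Actc1, chr2:76982498-76982797 (minus strand) for Ttn and chr4:148000472-148000771 (plus strand) for Nppa.
Myl7: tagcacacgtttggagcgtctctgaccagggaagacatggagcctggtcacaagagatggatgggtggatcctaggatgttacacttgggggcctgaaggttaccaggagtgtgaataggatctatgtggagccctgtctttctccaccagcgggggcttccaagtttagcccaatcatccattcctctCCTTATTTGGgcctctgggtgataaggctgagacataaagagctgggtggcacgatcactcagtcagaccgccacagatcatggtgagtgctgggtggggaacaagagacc
Actc1: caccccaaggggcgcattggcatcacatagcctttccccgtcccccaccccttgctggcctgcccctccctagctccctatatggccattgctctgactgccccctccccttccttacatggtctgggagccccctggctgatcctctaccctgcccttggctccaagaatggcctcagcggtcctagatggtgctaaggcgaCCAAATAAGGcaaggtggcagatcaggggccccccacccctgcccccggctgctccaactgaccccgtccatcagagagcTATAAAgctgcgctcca
Ttn: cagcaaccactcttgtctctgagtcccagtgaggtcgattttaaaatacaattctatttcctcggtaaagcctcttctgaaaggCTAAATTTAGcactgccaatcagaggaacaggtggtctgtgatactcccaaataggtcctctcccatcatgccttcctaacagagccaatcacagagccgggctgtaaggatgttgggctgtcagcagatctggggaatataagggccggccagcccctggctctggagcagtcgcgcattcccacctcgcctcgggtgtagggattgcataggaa
Nppa: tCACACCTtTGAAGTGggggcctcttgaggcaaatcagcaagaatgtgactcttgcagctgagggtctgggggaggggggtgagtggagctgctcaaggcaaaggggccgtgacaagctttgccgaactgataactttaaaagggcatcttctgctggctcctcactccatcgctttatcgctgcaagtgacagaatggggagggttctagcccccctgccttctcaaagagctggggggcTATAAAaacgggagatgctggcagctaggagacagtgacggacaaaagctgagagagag

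Over the set, 27 of the 34 genes had a promoter entry, with 33 windows among them, and Cox6a2, Gata4, Gata6, Myocd, Sln, Tbx5 and Tcap had none. A CArG box was found in 5 of the 33 windows (15.2%), of Myl3, Myl7, Actc1 and Ldb3, the last with the same box in 2 overlapping windows, against 1.63% of all 32817 windows. A MEF2 box was found in 2 windows (6.06% against 0.558%), of Mybpc3 and Ttn. Searches on both strands found the GATA motif AGATAA in 15.2% against 11.2%, the NK2 motif TNAAGTG in 12.1% against 11.5%, the T-box motif AGGTGTG in 12.1% against 5.84% (Nppa, Tnni3 and Tnni1, the last with 1 site in 2 overlapping windows), and TATAAA in 21.2% against 13.6%. The CArG box began 61 bases before the start of Myl7 and 47 bases before that of Actc1, and the MEF2 box of Ttn 166 bases before its start. A match describes letters in a window and not a bound site.

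The secreted signals of the chambers were close to the limit of detection at E9.0. Nppa, the atrial natriuretic peptide of forming chamber muscle, was at 0.0734, 0.214 and 0.129 CPM in the heterozygous E9.0 replicates, in order of number. It was at 1.05, 0 and 0 CPM in the homozygous E9.0 libraries, which is 14 counts in replicate 1 and none in the others. At E9.5 it was at 60.6, 62.3 and 60.8 CPM in heterozygous and at 47.2, 75.4 and 63.6 CPM in homozygous heads. Every E9.5 library lay far above every E9.0 library, while the genotypes overlapped at both stages. The 8 counts of the heterozygous E9.0 group against 5825 at E9.5 gave a 425-fold ratio (95% counting interval 216 to 986), and the edgeR log2 fold change was 8.68 ± 0.51 (SE; adjusted p 1.4e-06). In homozygous heads the change was 7.63 ± 0.47 (adjusted p 1.8e-06). Leaving out homozygous E9.0 replicate 1 gave 13.58, but no count was then left at E9.0, so this fitted value is no bound. An antisense transcript, Gm13054, covers 61.5% of the exon bases of Nppa in GENCODE M21, and without the strand setting the reads of both cannot be told apart.

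Nppb, the B-type natriuretic peptide encoded next to Nppa on chromosome 4, stood at 0.22, 0.268 and 0.086 CPM in heterozygous E9.0 heads and at 0.751, 0.115 and 0.0675 CPM in homozygous ones. By E9.5 it stood at 10.9, 14.6 and 10.7 CPM and at 5.7, 16.1 and 10.4 CPM, respectively. The stages were apart in both genotypes, and homozygous E9.5 replicate 1 was the lowest of the 6 E9.5 libraries. It rose by 6.03 ± 0.64 (log2, SE) in heterozygous heads (edgeR adjusted p 4.8e-05) and by 5.21 ± 0.63 in homozygous heads (adjusted p 1.1e-04). Bmp10, a growth factor of trabecular muscle, had 4 counts in the heterozygous E9.0 group and 7 in the homozygous one. Its E9.0 levels were 0.0734, 0.161 and 0 CPM and 0.451, 0 and 0.0675 CPM. All 6 E9.5 libraries had more, with 3.05, 4.25 and 3.09 CPM in heterozygous and 3.1, 3.68 and 3.3 CPM in homozygous heads. The counts gave ratios of 48.5 (95% counting interval 18.8 to 179) and 22 (10.5 to 55.1), and both changes passed the test (log2 5.49 ± 0.55 and 4.40 ± 0.51, edgeR adjusted p 2.6e-06 and 9.1e-06).

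Among the myosins, the ventricular light chain moved most. Myl2, the regulatory light chain of ventricular muscle, was at 1.25, 0.322 and 0.344 CPM in heterozygous and 1.28, 0.515 and 0.878 CPM in homozygous E9.0 heads. Its E9.5 levels were 127, 143 and 120 CPM and 113, 161 and 152 CPM. Between the stages there was no overlap, and between the genotypes there was overlap at each stage. Myl2 rose by 7.84 ± 0.28 and 7.36 ± 0.27 (log2, SE; edgeR adjusted p 1.4e-08 and 1.7e-08), and the first value was 8.59 without heterozygous E9.0 replicate 1.

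Myl7, the regulatory light chain that is later atrial, was already clear at E9.0. It was at 26, 20.8 and 6.79 CPM in heterozygous and 37.3, 13.6 and 18.1 CPM in homozygous E9.0 heads. Replicate 3 of the heterozygous and replicate 1 of the homozygous group were the lowest and the highest of these 6 libraries. At E9.5 Myl7 was at 189, 229 and 181 CPM and at 220, 252 and 247 CPM, all above the E9.0 values. The rise was 3.53 ± 0.48 and 3.40 ± 0.47 (log2, SE; edgeR adjusted p 6.4e-04 and 7.1e-04). The ratio of Myl2 to Myl7 in CPM was 0.0155 to 0.0506 in the 6 E9.0 libraries and 0.514 to 0.674 in the 6 E9.5 libraries, a description of 2 genes of the set without a test. Of the other light chains, Myl3 (the ventricular essential chain) rose by 5.45 and 5.20, and Myl4 (the atrial and embryonic essential chain) by 3.91 and 3.87, in heterozygous and homozygous heads.

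The myosin heavy chains differed in how much they varied between the E9.0 libraries. Myh6, the alpha heavy chain, was at 47, 48.1 and 4.9 CPM in heterozygous and 88.1, 16.7 and 16.3 CPM in homozygous E9.0 heads. The highest of the 3 heterozygous libraries held 9.81 times the level of the lowest, and the highest of the homozygous ones 5.41 times. At E9.5 Myh6 was at 464, 674 and 464 CPM and at 636, 844 and 746 CPM, again with no overlap between stages. It rose by 4.03 ± 0.89 and 4.22 ± 0.90 (log2, SE; edgeR adjusted p 0.00873 and 0.00707), and by 5.49 in homozygous heads without E9.0 replicate 1. Myh7, the beta heavy chain, was at 72.7, 39.9 and 31.7 CPM and 91.4, 40.6 and 74.6 CPM at E9.0. By E9.5 its levels were 557, 867 and 587 CPM and 647, 885 and 858 CPM. Its stages were apart and its E9.0 spread was smaller than that of Myh6, at 2.29 and 2.25 times from lowest to highest. Myh7 rose by 3.82 ± 0.42 and 3.54 ± 0.41 (edgeR adjusted p 2.0e-04 and 2.6e-04). The ratio of Myh6 to Myh7 ran from 0.154 to 1.2 in the heterozygous and from 0.218 to 0.963 in the homozygous E9.0 libraries, and from 0.777 to 0.983 over the 6 E9.5 libraries. Of the 50-base windows of Myh6, 20.2% also occur in Myh7, and 13.3% of the exon bases of Myh7 lie under other genes, mostly antisense, so reads could be split between them. Mybpc3, the myosin-binding protein of the thick filament, rose by 4.33 and 4.13.

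All 5 thin filament genes rose in both genotypes. Tnnt2, the cardiac troponin that ties the complex to tropomyosin, was at 21.9, 14.5 and 5.63 CPM in heterozygous and 31.3, 12.6 and 14.4 CPM in homozygous E9.0 heads. Its E9.5 levels were 120, 133 and 128 CPM and 138, 179 and 190 CPM. The stages did not overlap, and at E9.5 the 3 homozygous libraries lay above the 3 heterozygous ones. From E9.0 to E9.5 Tnnt2 rose by 3.25 ± 0.45 and 3.14 ± 0.44 (log2, SE; edgeR adjusted p 7.7e-04 and 8.0e-04).

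Actc1, the cardiac alpha-actin, was at 46.8, 35.8 and 10.2 CPM in heterozygous and 72, 19.5 and 25.5 CPM in homozygous E9.0 heads. It reached 481, 561 and 506 CPM and 547, 749 and 718 CPM at E9.5. Heterozygous replicate 3 and homozygous replicate 1 were again the lowest and the highest at E9.0, and the stages were apart. Actc1 rose by 4.09 ± 0.63 and 4.12 ± 0.63 (edgeR adjusted p 0.00137 and 0.00127), the second value being 4.90 without homozygous E9.0 replicate 1. Tnnc1, which binds calcium, rose by 3.82 and 3.68. The inhibitory subunits differed in size of change: Tnni1, the slow and embryonic form, rose by 3.51 and 3.42, and Tnni3, the later cardiac form, by 4.99 and 5.52. The share of Tnni3 in the summed CPM of both was 3.72% to 10.2% in the E9.0 libraries and 16.6% to 20.7% in the E9.5 libraries, with no overlap.

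Titin and the Z disc genes followed. Ttn, whose giant product spans the sarcomere from the Z disc to the M line, was at 258, 219 and 40.2 CPM in heterozygous and 398, 92 and 121 CPM in homozygous E9.0 heads. At E9.5 it was at 1750, 3320 and 1550 CPM and at 1920, 3260 and 2000 CPM. Replicate 2 stood out upwards in both E9.5 groups, and the stages did not overlap. Ttn rose by 3.68 ± 0.84 and 3.56 ± 0.84 (log2, SE; edgeR adjusted p 0.00996 and 0.0112), and by 4.49 in homozygous heads without E9.0 replicate 1. Its share of the summed CPM of the set was 25.6% to 42.7% at E9.0 and 30.6% to 45.7% at E9.5. Relative to Tnnt2, Ttn stood at 14.6, 25 and 12.1 in the heterozygous and 13.9, 18.3 and 10.5 in the homozygous E9.5 libraries, so the excess of Ttn in both replicates 2 was not shared in size by Tnnt2.

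The other 6 genes of this class rose in both genotypes. Actn2, the alpha-actinin that crosslinks actin at the Z disc, rose by 4.52 and 4.45, and Ldb3, a Z disc scaffold, by 3.44 and 3.15. Csrp3, the muscle LIM protein, rose by 5.11 and 5.01, and Tcap, the titin cap, by 3.94 and 4.32 from 9 counts in each E9.0 group. Hspb7, a small heat shock protein of heart muscle, rose by 4.33 and 5.38. Smyd1, a methyltransferase needed for myosin assembly, changed least of the class (2.79 and 2.50).

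Of the calcium and respiration genes, 4 of 5 were tested and rose. Ryr2, the calcium release channel of the sarcoplasmic reticulum, went from 12.5 ± 7.83 to 88.1 ± 19.3 CPM in heterozygous and from 13.2 ± 6.27 to 112 ± 18.8 CPM in homozygous heads (SD, n = 3 each). Its log2 fold changes were 2.87 ± 0.50 and 3.12 ± 0.50 (SE; edgeR adjusted p 0.00245 and 0.00162). The others were near the floor at E9.0. Pln, the inhibitor of the calcium pump, had 8 counts in each E9.0 group and rose 64.2-fold (95% counting interval 32.4 to 149) and 64.8-fold (32.8 to 150). Of its exon bases, 64.7% are overlapped, chiefly by Cep85l on the other strand. Casq2, which stores calcium, had 9 counts in the heterozygous E9.0 group and 108 at E9.5, a 7.01-fold ratio (3.56 to 15.7), and its fitted change in homozygous heads was 2.15 ± 0.45. Cox6a2, the muscle form of a cytochrome oxidase subunit, had 0 counts in the heterozygous E9.0 group and 212 at E9.5, so it was at least 41.3-fold higher against a floor of 3 counts over the group. In homozygous heads it had 1 count at E9.0 and 263 at E9.5. Sln, a regulator of the calcium pump in atrial and skeletal muscle, had at most 6 counts in any library (0.183 CPM) and was not tested.

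The regulators were present at E9.0 and rose in both genotypes. Their log2 fold changes ran from 0.87 to 2.36 in heterozygous and from 1.16 to 2.79 in homozygous heads, with medians of 1.51 and 1.58. Nkx2-5, a homeodomain factor of early cardiac cells, was at 7.41, 5.57 and 5.07 CPM in heterozygous and 8.49, 6.13 and 9.99 CPM in homozygous E9.0 heads. Its E9.5 levels were 11.9, 15.2 and 15.5 CPM and 19.4, 23.5 and 22.4 CPM. The stages were apart in each genotype, and at E9.5 so were the genotypes. Nkx2-5 rose by 1.26 ± 0.17 and 1.42 ± 0.17 (log2, SE; edgeR adjusted p 4.9e-05 and 1.1e-05).

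Gata4, a zinc finger factor of cardiac mesoderm and foregut, was at 6.82, 9.22 and 1.72 CPM in heterozygous and 6.76, 4.06 and 2.7 CPM in homozygous E9.0 heads. Its E9.5 levels were 26, 20.4 and 18.1 CPM and 26.4, 28.8 and 32.3 CPM. Heterozygous replicate 3 was the lowest library at E9.0, and every E9.5 library lay above every E9.0 library. Gata4 rose by 1.91 ± 0.46 and 2.71 ± 0.48 (edgeR adjusted p 0.0114 and 0.00247). The heterozygous call was lost when only the groups compared were fitted. Gata6, a related factor, was at 13.4, 11.3 and 5.03 CPM and 11.9, 10.9 and 8.71 CPM at E9.0. By E9.5 it was at 23.3, 15.8 and 16.2 CPM and at 24.1, 25.8 and 22.6 CPM. Its stages did not overlap within a genotype, but its rise in heterozygous heads was the weakest call of the set (0.94 ± 0.29, edgeR adjusted p 0.0302). That call was lost without heterozygous E9.5 replicate 1, where the change was 0.74. It was also lost with no filter and when only the groups compared were fitted. In homozygous heads Gata6 rose by 1.20 ± 0.29 (adjusted p 0.00932).

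Tbx5, a T-box factor of the atria, the left ventricle and the forelimb, was at 3.3, 2.63 and 0.258 CPM in heterozygous and 3.53, 1.43 and 0.608 CPM in homozygous E9.0 heads. By E9.5 it stood at 10.5, 8.95 and 9.19 CPM and at 10.9, 13.1 and 13.5 CPM. Its highest heterozygous E9.0 library held 12.8 times the level of its lowest, replicate 3, and the stages were nonetheless apart. Tbx5 rose by 2.34 ± 0.57 and 2.79 ± 0.58 (log2, SE; edgeR adjusted p 0.0113 and 0.00519). The first was 1.70 when heterozygous E9.0 replicate 3 was left out, and the second 3.57 when homozygous E9.0 replicate 1 was.

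Tbx20, a T-box factor of chamber muscle and endocardium, was at 13.3, 13.3 and 5.63 CPM in heterozygous and 17.7, 9.22 and 12.5 CPM in homozygous E9.0 heads. The E9.5 libraries held 53.1, 54.8 and 53.2 CPM and 73.3, 85.1 and 87.7 CPM. Both the stages and the E9.5 genotypes were apart, and the E9.5 heterozygous libraries differed by only 1.03 times. Tbx20 rose by 2.36 ± 0.29 and 2.66 ± 0.29 (edgeR adjusted p 2.6e-04 and 1.1e-04). Myocd, the muscle partner of serum response factor, rose by 0.87 and 1.16, and Irx4, a ventricular homeodomain factor, by 1.51 and 1.58. The heterozygous call of Myocd was lost when only the groups compared were fitted.

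**Figure D2:**
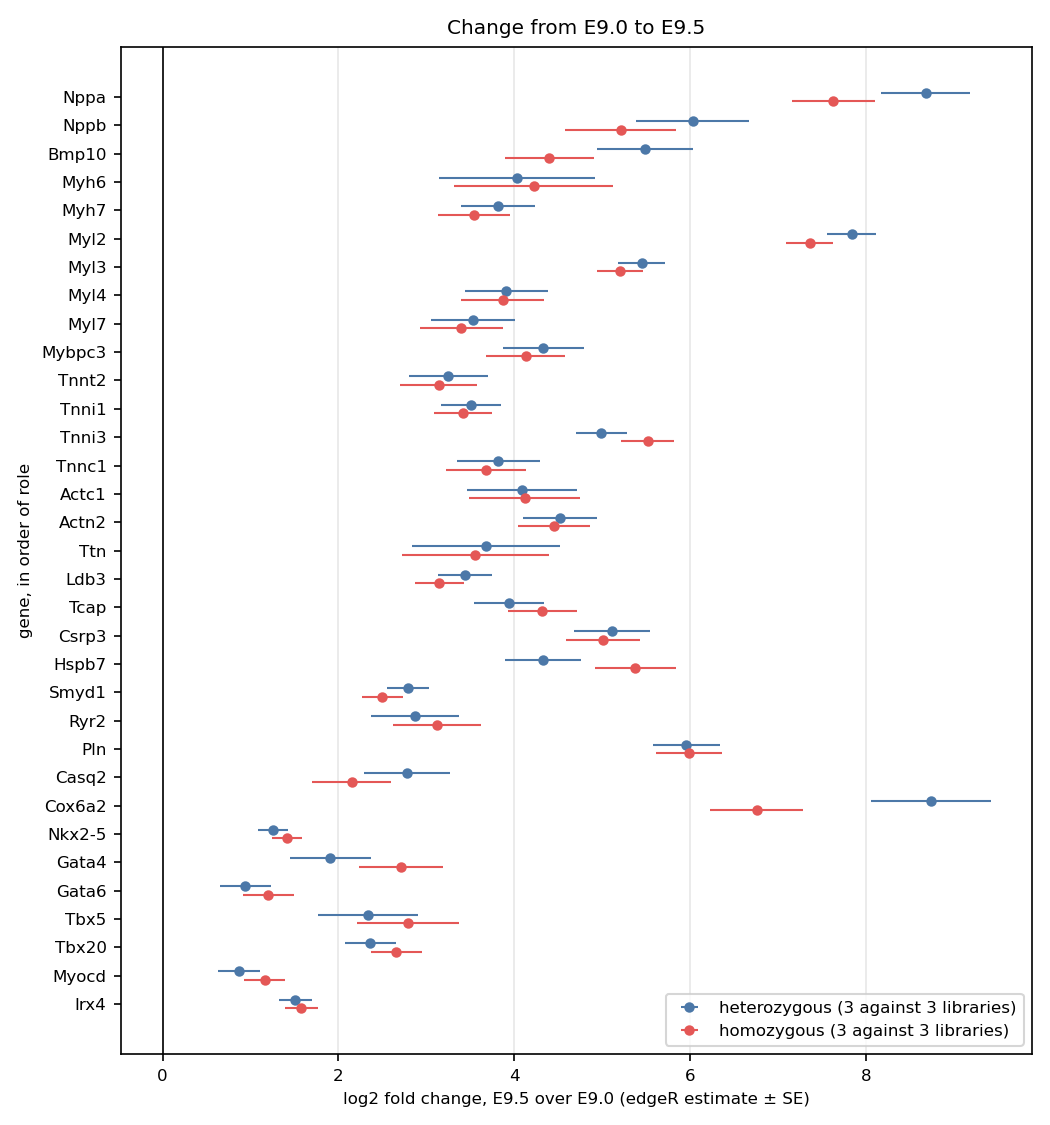
Log2 fold change from E9.0 to E9.5 of the 33 tested heart muscle genes, in order of role, in heterozygous (blue) and homozygous (red) heads. Points are edgeR estimates and bars their standard errors. All points lie to the right of 0, the heterozygous point of Cox6a2 being a fitted value with no count at E9.0, with the regulators at the bottom between 0.87 and 2.79.

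The changes in the heterozygous and homozygous heads share no library, and in both all 33 tested genes were higher at E9.5. No gene of the set passed the test of the difference between the stage changes of the genotypes (the interaction of genotype and stage, edgeR, 33 tested). None had an unadjusted p under 0.05, against 8.6% of all genes. DESeq2 and limma-voom called none either. Over all genes 0.0675% passed the edgeR test. The interaction estimates ran from −1.98, for Cox6a2 with its empty heterozygous E9.0 group, to 1.04, with 14 above and 19 below 0. Their standard errors differed widely between genes, from 0.24 for Nkx2-5 and 0.28 for Irx4 to 1.15 for Myh6 and 1.57 for Cox6a2. For Myh6 and Ttn (standard error 1.07) differences of about the size of these errors were not detectable with these libraries.

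Levels of different genes are put in order per kilobase of annotated exon (GENCODE M21, all isoforms merged, which lowers the value of genes with many isoforms). By CPM per kilobase Myl7 and Actc1 led the set in all 4 groups. Their group means were 30.3 and 19.1 in heterozygous and 39 and 24.1 in homozygous E9.0 heads. At E9.5 they were 338 and 319 in heterozygous and 406 and 415 in homozygous heads, so the pair changed order with a difference smaller than the spread between libraries. Next in heterozygous E9.5 heads came Myh6 (79.4), Myh7 (77.8), Nppa (70.8), Myl2 (66.7) and Tnnc1 (62.3). Neighbours in this order differed by less than the larger SD of each pair. In homozygous E9.5 heads the order was Myh6 (110), Myh7 (92.5), Tnnc1 (83.6), Myl2 (72.8) and Nppa (71.8). Ttn, with its very long transcript, stood at 18.9 and 20.5 CPM per kilobase in heterozygous and homozygous E9.5 heads. The regulators lay between 2.04 (Tbx5) and 8.26 (Nkx2-5) CPM per kilobase in heterozygous E9.5 heads.

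The spread between libraries of 1 group was large at E9.0. The summed level of the 34 genes was 635, 518 and 157 CPM in heterozygous and 931, 305 and 395 CPM in homozygous E9.0 heads, by replicate. By E9.5 the sum had reached 4820, 7270 and 4690 CPM and 5500, 8050 and 6540 CPM. Heterozygous replicate 3 was the lowest and homozygous replicate 1 the highest of the 6 E9.0 libraries, and the genotypes overlapped at both stages. Without Ttn the sums were 378, 299 and 117 CPM and 533, 213 and 275 CPM at E9.0, in the same order within each group. The highest E9.0 library held 4.04 times the sum of the lowest in heterozygous and 3.05 times in homozygous heads, and at E9.5 these ratios were 1.55 and 1.46.

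The low and the high library were so across the set. Heterozygous E9.0 replicate 3 was the lowest of its 3 libraries for 28 of the 33 tested genes, where it was lowest for 33.8% of all genes, and the lowest of all 6 E9.0 libraries for 24 (14.4% of all genes). Homozygous E9.0 replicate 1 was the highest of its group for 28 (30.3% of all genes) and the highest of the 6 for 25 (12.7%). These E9.0 counts cover Nppa, Nppb, Bmp10, Tcap, Pln, Casq2 and Cox6a2 too, which passed the filter only through their E9.5 libraries. They had at most 14 counts in any E9.0 library. Cox6a2, with no count in the heterozygous E9.0 group, has no true rank there. On the log2 scale the median departure from the group mean was 0.64, 0.30 and −0.88 in the heterozygous and 0.71, −0.46 and −0.25 in the homozygous E9.0 libraries, and at most 0.24 in size at E9.5. At E9.5 homozygous replicate 1 was the lowest of its group for 30 of the 33 (35.7% of all genes), and replicate 2 was the highest for 25 in heterozygous (36.7% of all genes) and for 23 in homozygous heads (29.9%). The genes share their libraries, so these counts are not independent observations.

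**Figure D3:**
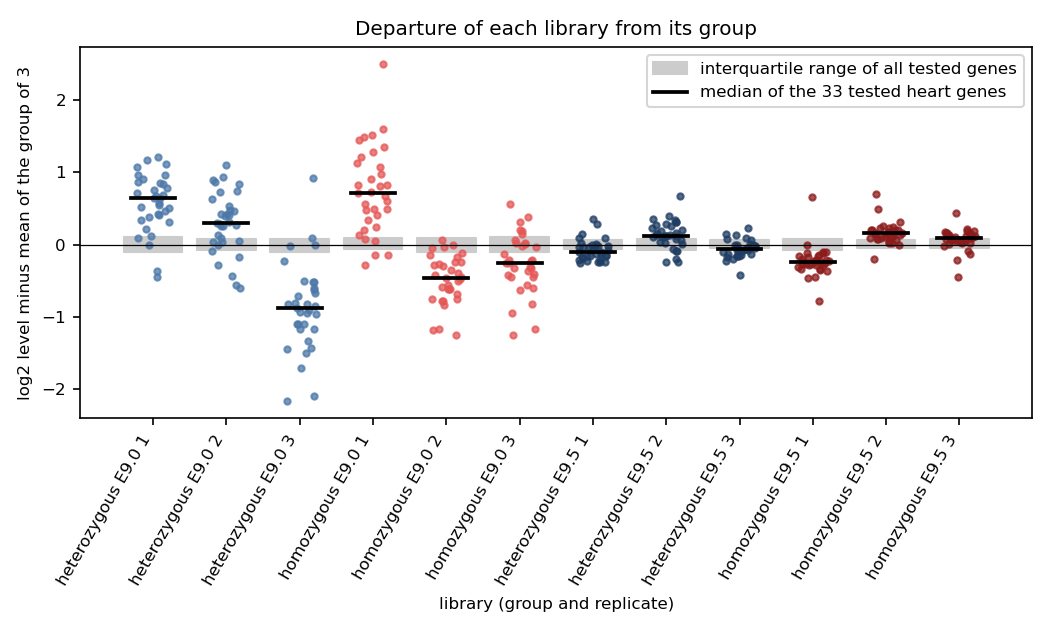
Departure of each of the 33 tested heart muscle genes (points) from the mean of its group of 3 libraries, in log2 units, for each of the 12 libraries, with the median (black line) and the interquartile range of all 14810 tested genes (grey). The medians of heterozygous E9.0 replicate 3 at −0.88 and of homozygous E9.0 replicate 1 at 0.71 lie farthest from 0. The medians at E9.5 lie within 0.24 of 0. The grey range is that of single genes and is no test of a median of genes that move together.

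The SD of log2 levels within a group gave the same picture gene by gene. Its median over the 33 tested genes was 0.87 in heterozygous and 0.63 in homozygous E9.0 heads, against 0.13 and 0.14 over all genes. At E9.5 it was 0.18 and 0.23 against 0.10 and 0.09. In heterozygous E9.0 heads 30 of the 33 lay above the 90th percentile of all genes, in homozygous E9.0 heads 24, and at E9.5 2 and 6. Nppa, Nppb, Bmp10, Tcap, Pln, Casq2 and Cox6a2 had at most 14 counts in any E9.0 library, where counting error is large. Myh6, Ttn and Actc1, with 114 to 5297 counts in a library, varied by 3.69 to 9.81 times within an E9.0 group, far beyond counting error. The smallest within-group ratio at E9.0 among the regulators was 1.29 times (Myocd, homozygous).

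Single E9.0 libraries carried weight in the size of the rise, not in its direction. Without homozygous E9.0 replicate 1, the fitted rise of 12 genes moved by more than 1.5-fold. Of those not yet given, Nppb became 6.78, Bmp10 6.55, Myl4 4.46, Tnnc1 4.40, Actn2 5.08, Csrp3 6.02 and Hspb7 6.56. Without heterozygous E9.0 replicate 3, 5 genes moved as much, among them Bmp10 (4.75), Tcap (3.35), Hspb7 (3.73) and Casq2 (4.08). Leaving out heterozygous E9.0 replicate 1 moved Tcap to 5.09, and leaving out replicate 2 moved Bmp10 to 6.75 and Csrp3 to 5.73. Without homozygous E9.0 replicate 2 the changes of Nppa and Bmp10 were 6.95 and 3.73, while without replicate 3 no Cox6a2 count was left at E9.0, so that it had no measured change. In each of the other fits the gene still passed the test.

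Markers of other tissues were followed beside this spread. The epicardium and proepicardium list (7 genes) summed to 47.9, 53.5 and 34.1 CPM in heterozygous and 51.7, 54 and 39.8 CPM in homozygous E9.0 heads, so it too was lowest in heterozygous replicate 3, whereas in the homozygous group it was highest in replicate 2, the library lowest in heart genes. Most of this sum came from Aldh1a2 (11.3 to 24.3 CPM) and Sema3d (13.2 to 20.2 CPM), while Wt1, Upk3b and Upk1b were each at or below 0.744 CPM. Foxf1, a gene of splanchnic mesoderm, ranged from 1.5 to 6.16 CPM over the heterozygous and from 1.69 to 5.67 CPM over the homozygous E9.0 libraries. The heart progenitor and pharyngeal mesoderm list (15 genes) varied little, from 272 to 306 CPM in heterozygous and 310 to 326 CPM in homozygous E9.0 heads, with its lowest value again in heterozygous replicate 3. Endothelial markers (12 genes) summed to 280 to 302 and 327 to 336 CPM, and head neural markers (8 genes) to 202 to 216 and 197 to 214 CPM. Primitive erythroid genes, a sign of blood, summed to 848, 645 and 1140 CPM and 621, 537 and 1170 CPM, so in the heterozygous group the library lowest in heart genes was the highest in erythroid genes, whereas in the homozygous group the library lowest in heart genes, replicate 2, was also the lowest in erythroid genes. Trunk Hox and tail genes (18) summed to 5.72 to 9.38 CPM in all 6. Where the heads were cut is not stated, and its part in the spread was not tested.

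**Figure D4:**
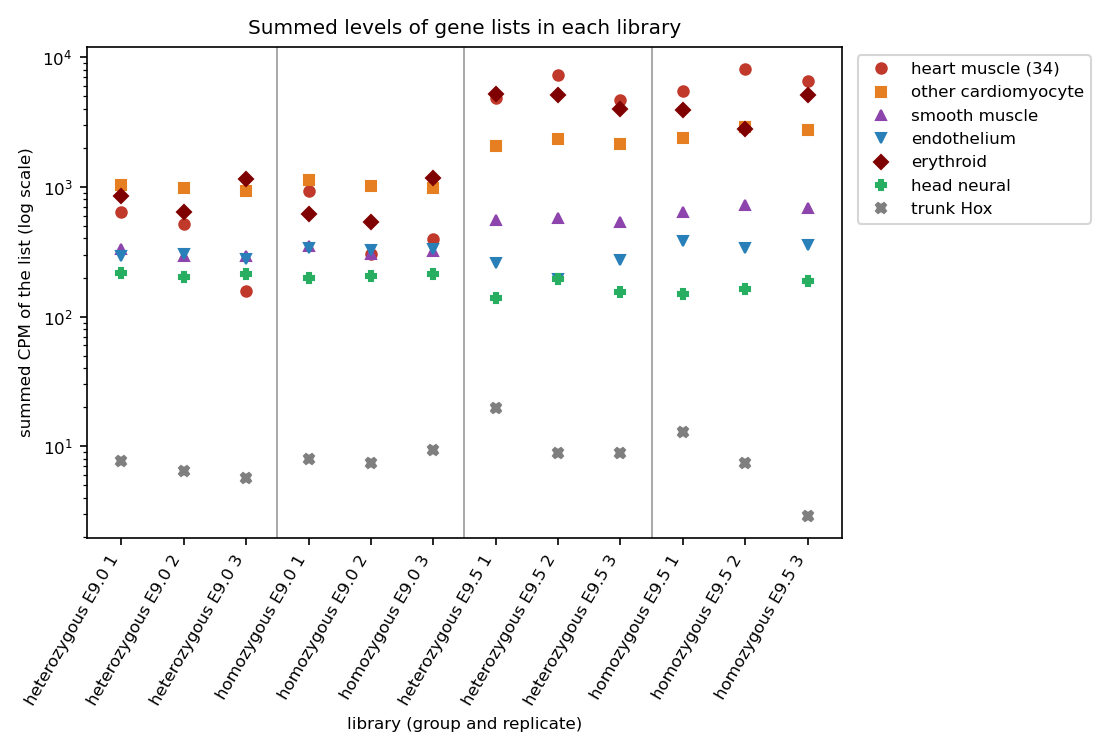
Summed CPM (log scale) of the 34 heart muscle genes and of 6 comparison lists in each of the 12 libraries. The heart muscle sum (red circles) falls to 157 CPM in heterozygous E9.0 replicate 3 and is 4690 CPM or more in all E9.5 libraries, while head neural and endothelial sums lie between 139 and 380 CPM at both stages.

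Other genes of cardiac muscle outside the set also rose. Of 44 such genes 41 were tested, and 38 rose in heterozygous heads (19.2% of all genes) and 39 in homozygous heads (19.6%). None was called lower, and the median log2 fold changes were 2.01 and 2.35. Among the largest in heterozygous heads were Smpx, a small muscle protein (5.38), Myl1 (5.09), Trdn, which anchors calcium release units (4.71), Pgam2 (4.55) and Asb2 (4.02). Smpx, Myl1, Trdn and Pgam2 were at or below 0.977 CPM in every E9.0 library. Genes this low may have passed the filter only through their E9.5 libraries, which favours a rise, and the counts above include them. The summed level of this list was 937 to 1040 CPM in heterozygous and 983 to 1120 CPM in homozygous E9.0 heads. It was carried by Atp2a2, a calcium pump of many tissues, at 478 to 521 CPM and Tpm1, a tropomyosin, at 244 to 301 CPM over the 6 E9.0 libraries. At E9.5 the list summed to 2080 to 2340 and 2390 to 2890 CPM.

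Some genes of other tissue lists were also called between E9.0 and E9.5. Over all genes 19.2% were called higher and 16% lower in heterozygous heads, and 19.6% and 15.8% in homozygous heads. Of the 7 epicardial and proepicardial genes 5 rose in each genotype, led by Upk3b (3.94 and 3.22) and Wt1 (3.36 and 3.20), both of which mark mesothelial cells, with Upk1b, Tbx18 and Sema3d. Upk3b, Wt1 and Upk1b were at or below 0.744 CPM in every E9.0 library. Such genes may have passed the filter only through their E9.5 libraries, which favours a rise. The same holds for Hoxa5, Hoxb5, Hoxb6 and Hoxc5 below, at or below 0.827 CPM at E9.0. Of 15 heart progenitor and pharyngeal mesoderm genes, 3 rose and 4 fell in heterozygous heads, and 3 rose and 3 fell in homozygous heads. Hand2 rose by 1.44 and 1.08 and Wnt11 by 1.38 and 1.46, whereas Tbx1, a regulator of pharyngeal mesoderm, fell by 0.85 in heterozygous heads. Markers of the head changed too. Of 8 head neural genes 1 rose and 4 fell in heterozygous heads, and 0 rose and 4 fell in homozygous heads, for example Rax, a regulator of eye formation (−1.31 and −0.67). Their sum was 202 to 216 CPM at E9.0 and 139 to 194 CPM at E9.5 in heterozygous heads, and 197 to 214 against 150 to 187 CPM in homozygous heads. Of 9 ganglion and crest genes 5 rose and 3 fell in each genotype, with Neurog1, a regulator of sensory neurons, higher (1.32 and 1.43) and Sox10 lower (−2.01 and −2.57). Of 7 smooth muscle genes 4 rose and 1 fell in heterozygous heads (median 1.64), and 3 rose and 0 fell in homozygous heads (median 0.35). Cnn1 (2.96 and 3.05), Acta2 (2.53 and 2.53), which embryonic heart muscle also makes, and Tagln (1.64 and 1.83) rose in both, and Smtn fell by 0.31 in heterozygous heads. All 7 tested primitive erythroid genes rose in each genotype, for example Hbb-y, an embryonic globin (3.20 and 3.27). Of the 18 trunk Hox and tail genes, 7 were tested. In heterozygous heads 4 rose, Hoxc5 (3.31), Hoxa5 (2.38), Hoxb5 (2.11) and Hoxb6, which held at most 0.0536 CPM at E9.0 and 0.968 to 1.43 CPM at E9.5, and 1 fell, T, a tail bud regulator (−2.93). In homozygous heads Hoxc5 (2.54) and Hoxb5 (2.14) rose, and T (−1.78) and Cdx1 (−1.43) fell. The sum of the list was 7.7, 6.49 and 5.72 CPM in heterozygous E9.0 heads and 19.6, 8.86 and 8.84 CPM at E9.5, and 7.96, 7.5 and 9.38 against 12.8, 7.46 and 2.92 CPM in homozygous heads. At E9.5 it was highest in replicate 1 of each genotype, whereas the summed heart muscle genes were highest in replicate 2. Its part in the rise of the heart muscle genes was not tested. Endothelial markers showed no such common rise, with 1 higher and 5 lower of 12 in heterozygous heads and 4 higher and 0 lower in homozygous heads.

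Skeletal muscle shares sarcomere genes with the heart, and its markers were followed too. The list of skeletal genes summed to 11.9 to 18.8 CPM at E9.0 and 63.3 to 95.4 CPM at E9.5. Myod1 and Myf6, which define skeletal muscle cells, stayed at or below 0.607 CPM in all libraries, and Myog, a factor of their differentiation, at or below 3.74 CPM. Myf5, of the same list, was at 0.54 to 2.33 CPM. Of 9 tested skeletal genes 4 rose in each genotype, namely Myh3 (4.96 and 4.65), Acta1 (4.16 and 3.83), Tnni2 (3.72 and 2.21) and Mylpf (2.15 and 1.93), and Actn3 fell by 0.48 in homozygous heads. Myh3, the embryonic skeletal myosin heavy chain, was at or below 0.675 CPM at E9.0 and at 1.69 to 13.7 CPM at E9.5. Tnni2 was at or below 0.743 CPM at E9.0. Both may have passed the filter only through their E9.5 libraries. Myl1, counted above with the cardiac muscle genes, is also a light chain of fast skeletal muscle. Acta1, the skeletal alpha-actin that embryonic heart also uses, went from 1.46 to 6.31 CPM at E9.0 to 41.2 to 74.5 CPM at E9.5. Liver and yolk sac markers summed to 42.4 CPM in heterozygous E9.5 replicate 1, led by Afp at 20.7 CPM, and to at most 13.2 CPM in the other 11 libraries. In that library the heart muscle set summed to 4820 CPM, within the range of its group. The part of these tissues in the rise of the heart muscle genes was not tested.

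Genotype made little difference that passed the test. At E9.0 none of the 33 tested genes differed between homozygous and heterozygous heads (edgeR), where 0.587% of all genes did. The unadjusted p was under 0.05 for 2 of the 33, Nkx2-5 and Smyd1, against 13.3% of all genes, and DESeq2 and limma-voom called none either. The homozygous mean was above the heterozygous one for 29 of the 33, with a median log2 difference of 0.42, against 49% of all genes and a median of 0. The 29 and the median include Nppa, Nppb, Bmp10, Tcap, Pln, Casq2 and Cox6a2, which passed the filter only through their E9.5 libraries. These had at most 14 counts in any E9.0 library, so their direction there carries little weight. The direction also leaned on homozygous replicate 1, the highest of the 6 E9.0 libraries for 25 of the 33 (12.7% of all genes). Homozygous replicates 2 and 3 held summed levels of 305 and 395 CPM, under the heterozygous mean of 437 CPM. No gene had all homozygous above all heterozygous E9.0 libraries (9.07% of all genes). The genes move together from library to library, so their shared direction is not 33 independent signs. The standard errors at E9.0 were 0.86 for Myh6, 0.77 for Ttn and 0.50 for Myl7, so a difference of the median size was not detectable in these genes.

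At E9.5 Nkx2-5 alone passed the threshold, at 21.8 ± 2.12 CPM in homozygous against 14.2 ± 1.98 CPM in heterozygous heads (SD, n = 3 each). Its log2 difference was 0.62 ± 0.15 (SE; edgeR adjusted p 0.0444), and 1 called gene of 33 compares with 1.19% of all genes that were called higher. All 3 homozygous libraries lay above all 3 heterozygous ones, and at E9.0 the groups overlapped with a difference of 0.46 ± 0.19 (adjusted p 0.309). The interaction did not separate the stages (0.16 ± 0.24, edgeR adjusted p 0.903). The call sat at the threshold: over 23 alternatives its adjusted p ran from 0.00894 to 0.181 with the difference between 0.51 and 0.70. Of the 12 fits without 1 library, 8 lost it, and the highest value (0.181) came without homozygous E9.5 replicate 2.

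The other regulators and part of the sarcomere genes pointed the same way at E9.5 without passing. Homozygous heads had the higher mean for 31 of the 33, with a median log2 difference of 0.38, against 49.2% of all genes and a median of 0. The 3 homozygous libraries lay above the 3 heterozygous ones for 12 of the 33, against 11.4% of all genes. These were Nkx2-5, Gata4, Tbx5, Tbx20, Myocd, Tnnt2, Tnnc1, Ldb3, Tcap, Hspb7, Smyd1 and Cox6a2. Myocd was at 26.4, 30.4 and 33.2 CPM in homozygous against 15.4, 22.2 and 16.9 CPM in heterozygous heads, a log2 difference of 0.72 ± 0.22 (edgeR adjusted p 0.145). For Tbx20 the difference was 0.61 ± 0.25 (adjusted p 0.324). Unadjusted p-values under 0.05 were seen for 6 of the 33, against 13.4% of all genes.

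The secreted signals and the largest sarcomere genes overlapped between the genotypes. The E9.5 difference was 0.02 ± 0.23 for Nppa, −0.17 ± 0.33 for Nppb and −0.04 ± 0.27 for Bmp10 (log2, SE). It was 0.13 ± 0.15 for Myl2, 0.26 ± 0.40 for Myl7, 0.47 ± 0.77 for Myh6, 0.38 ± 0.54 for Actc1 and 0.12 ± 0.75 for Ttn. In each case the standard error exceeded the difference, which does not show that the genotypes were alike. The model takes 1 estimate of spread per gene from all 12 libraries, so these errors also carry the larger E9.0 spread. For Myh6 the SD of log2 levels was 0.31 in heterozygous and 0.20 in homozygous E9.5 heads, against 1.88 and 1.39 at E9.0. For Myl7 it was 0.18 and 0.11, against 1.03 and 0.75.

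**Figure D5:**
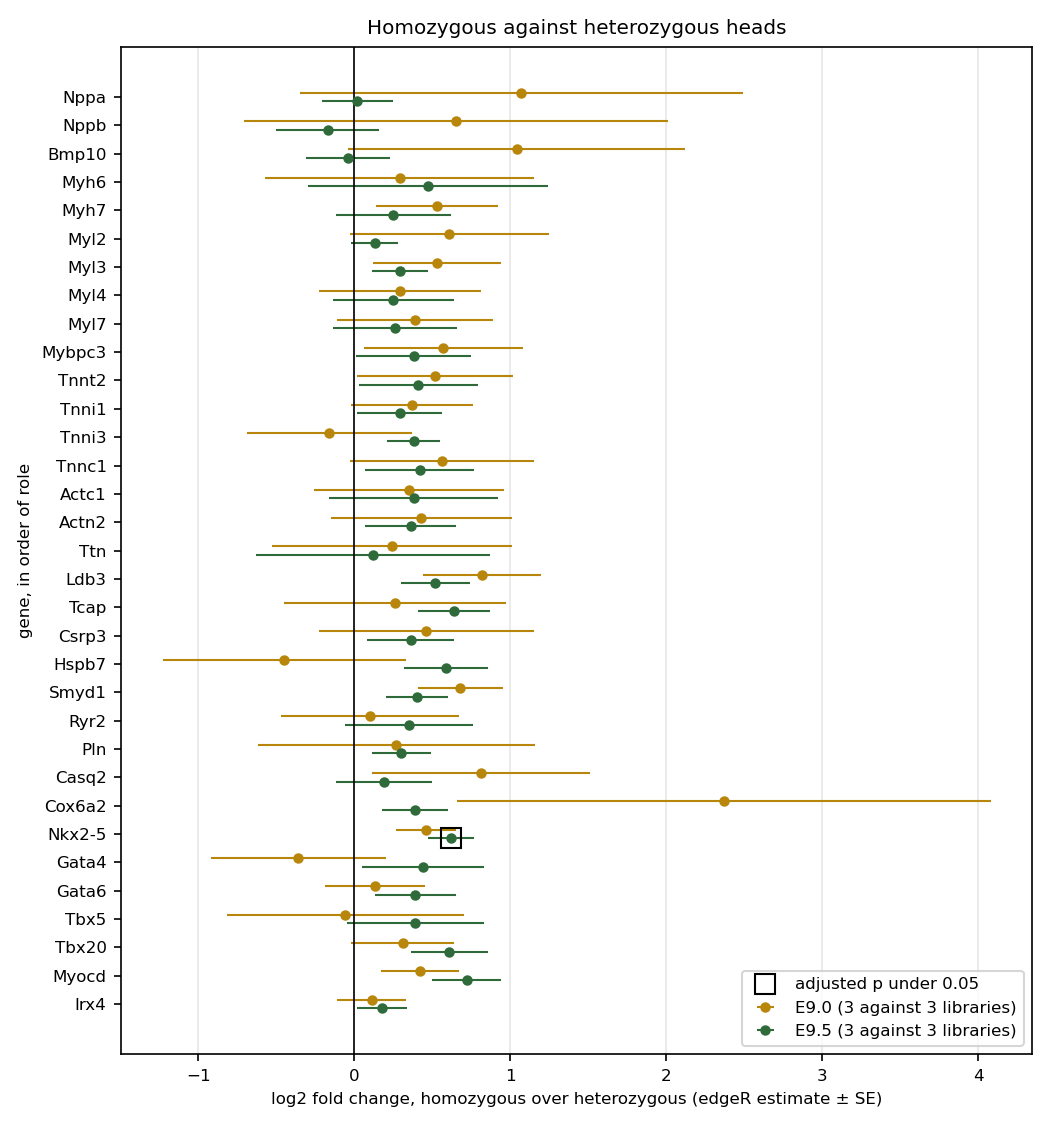
Log2 difference between homozygous and heterozygous heads of the 33 tested heart muscle genes at E9.0 (gold) and E9.5 (green), as edgeR estimates with standard errors. Most points lie to the right of 0, and the square marks Nkx2-5 at E9.5, the 1 gene past the threshold (0.62, adjusted p 0.0444).

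Some genes of neighbouring lists were also called higher in homozygous E9.5 heads, where 1.19% of all genes were. Their values stand beside the result for Nkx2-5. Of 12 endothelial and endocardial genes 5 were higher, Cdh5 (0.70), Kdr and Tek (0.64 each), Tie1 (0.63) and Flt1 (0.62), and the list summed to 339 to 380 CPM in homozygous against 194 to 271 CPM in heterozygous heads. Of 15 heart progenitor and pharyngeal mesoderm genes 4 were higher, among them Tbx1 (0.96) and Mef2c (0.35), with sums of 328 to 346 against 259 to 290 CPM. Of the 41 tested other cardiac muscle genes 2 were higher, Rbm24, an RNA-binding splicing regulator of muscle, and Fhl2, a LIM domain protein (0.45 each, edgeR adjusted p 0.0317 and 0.0333). Tagln (0.47) was the 1 smooth muscle gene called, and Rax (0.76, edgeR adjusted p 0.0178) the 1 head neural gene. Of the ganglion and crest list 3 of 9 were lower in homozygous heads (0.702% of all genes), Foxd3 (−1.80), Sox10 (−1.14) and Pou4f1 (−0.95). Whether these shifts and that of Nkx2-5 have a common source was not tested.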

How the data were processed

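RNA from mouse heads was sequenced in 12 libraries, and the authors deposited 1 table of raw counts per gene symbol, whole numbers without normalization. Per the submitters' processing notes, cutadapt, STAR, featureCounts and MultiQC were used with the mm10 genome. Versions, annotation, strand setting and the handling of reads with several matches are not given in the sources used here. All 12 columns were matched to samples and 0 were left without one. No 2 libraries of a group agreed within sampling noise (smallest chi-square per degree of freedom 10).

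The counts were tested with edgeR 4.0.16 (R 4.3.3). Genes were kept with filterByExpr by group (14810 of 24421, at most 0.0778% of a library's counts left out) and scaled with TMM. A robust quasi-likelihood F test was fitted in 1 model with 4 group means, two-sided, with Benjamini-Hochberg adjustment over the 14810 genes and a threshold of 0.05. Standard errors were derived as log2 fold change over the square root of F. Spread within groups used log2 CPM with a prior count of 2. Counting intervals (95%, exact binomial on the 2 counts) and floors of 3 counts cover counting error only. Promoters came from RefSeq (GRCm38.p6), and exon lengths, overlaps and shared 50-base windows from GENCODE M21. Figures were drawn with matplotlib 3.10.9.

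All 34 genes are named, 15 main ones and any gene called between genotypes with every library. From comparison lists, at most 6 genes past the threshold are named per comparison, with defining markers. Some genes that this rule selects are not reported here. Foxf1, Atp2a2 and Tpm1 were chosen after their values were seen. The 34 genes and the lists were chosen with earlier results of these data known. Alternatives were RLE, upper-quartile and total-count scaling, TMM without these genes and Rn45s, other filters, DESeq2 1.42.0, limma-voom (limma 3.58.1), non-robust dispersions, only the groups compared, a replicate block, stricter thresholds and each library left out.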

Additional observations from a re-analysis of the deposited data

How the results depend on the processing

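The rise from E9.0 to E9.5 kept its direction in all fits run for all tested genes. The number of genes called was 29 to 33 in heterozygous and 30 to 33 in homozygous heads over the alternatives, and 32 to 33 and 33 to 33 when 1 library was left out. The heterozygous call was lost for Gata6 with no filter and for Gata4, Gata6 and Myocd with only the groups compared. Between genotypes at E9.5, where Nkx2-5 was called, the number was 2 with total counts only (Myocd, Nkx2-5), 2 with only the groups compared (Nkx2-5, Tbx20), and 0 with a mean of at least 50 counts, without robust dispersions, with the replicate block, with the test against a 1.5-fold change and at an adjusted p under 0.01. It was 0 to 3 when 1 library was left out, with 3 (Myocd, Nkx2-5, Tbx20) when this was heterozygous E9.0 replicate 3. When it was homozygous E9.5 replicate 1, the gene called was Tnni3. At E9.0 total counts only gave 1 (Smyd1, log2 difference 0.89), and leaving out libraries gave 0. The E9.5 difference of Tbx20 was 0.61 in the main fit (edgeR adjusted p 0.324). It was also 0.61 with only the groups compared (0.00237) and without heterozygous E9.0 replicate 3 (0.0469). Myocd kept its 0.72 without that library (0.0126 against 0.145). Nkx2-5 kept its 0.62 but lost its call without heterozygous E9.0 replicate 2 (0.067) or homozygous E9.0 replicate 1 (0.0641). The main fit takes 1 estimate of spread per gene from all 12 libraries. The cause of these changes was not tested. DESeq2 and limma-voom called Nkx2-5 at E9.5. Total-count scaling moved the median of all genes to 0.38 and 0.18 between stages, in heterozygous and homozygous heads, to 0.19 between genotypes at E9.0 and to −0.19 for the interaction. The heart muscle genes moved with it, to medians of 4.26, 3.84, 0.64 and −0.29. Same-numbered samples did not deviate together over all tested genes (correlations from −0.167 to 0.109), which cannot exclude a pairing seen in fewer genes. The erythroid sum was highest in replicate 3 and lowest in replicate 2 of both E9.0 groups. The head neural sum was highest in replicate 1 of the heterozygous and replicate 3 of the homozygous E9.0 group. Samples were treated as unpaired in the main test. With the replicate block 33 genes were called between stages in each genotype, 0 between genotypes at either stage (Nkx2-5 adjusted p 0.0684) and 0 in the interaction. Depth limits Nppa, Nppb, Bmp10, Tcap, Pln, Casq2, Cox6a2 and Sln at E9.0.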
